A study of Mus musculus with 12 samples.

Results

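The comparison described here asked whether the difference in RNA between Cre-treated and control cells was the same before and after osteogenic induction. It was taken as a contrast of 4 group means: the change from day 0 to day 4 in cells given Cre, minus the same change in cells given the control virus. All 12 libraries of the series entered 1 fit, 3 in each of 4 groups, and 13670 of the 22063 genes in the table passed the filter on low counts and were tested. The cells were mesenchymal cells at passage 2 from the mandibular condyle of mice at postnatal day (PN) 1.5, and every group carried the Plagl1 fl/fl allele, in which Cre can cut out the floxed part of Plagl1. On day 0 the groups were AdV-EGFP, infected with an adenovirus that carries EGFP alone, and AdV-CRE-EGFP, infected with one that carries Cre and EGFP, each at a multiplicity of infection of 100. The groups named OI-AdV-EGFP and, with Cre, OI-AdV-CRE-EGFP had received the same viruses and then 4 days of osteogenic medium, which held dexamethasone, a synthetic glucocorticoid, at 100 nM, ascorbic acid at 50 ug/ml and β-glycerophosphate, a phosphate donor for mineral, at 5 mM. No group spent 4 days without this medium, so induction and time in culture cannot be told apart, and "with induction" below stands for both. Whether the 3 libraries in each group stem from different cultures or mice is not given in the labels. The p-values therefore measure only how far these libraries vary, and that variation may be technical.

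An interaction is a ratio of ratios. A log2 interaction of −1 means that the Cre over EGFP ratio of a gene was 2-fold lower on day 4 than on day 0, and below a gene is called "higher" or "lower" by that sign. Osteogenic induction drives mesenchymal cells towards the osteoblast: transcription factors such as RUNX2 and SP7 come first, alkaline phosphatase and collagen matrix follow, and mineral-binding proteins such as bone sialoprotein come late. Insulin-like growth factors (IGF) act in the same tissue as growth signals, and IGF-binding proteins carry them and control their access to the receptor. PLAGL1 is a zinc finger transcription factor encoded by an imprinted gene, of which the paternal copy is expressed.

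Library totals ran from 15316989 to 18052040 estimated counts and TMM scaling factors from 0.979 to 1.019. Levels are given as CPM, the share of a library's scaled counts. The summed CPM of 10 mesenchymal markers was 21000 to 23800 on day 0 and 29800 to 35800 on day 4, and 8 blood markers summed to at most 0.483 in any library. Several marker lists moved with both factors. The 16 markers of macrophages and osteoclasts summed to 424 to 442 CPM in AdV-EGFP, 843 to 915 in AdV-CRE-EGFP, 895 to 920 in OI-AdV-EGFP and 1370 to 1420 in OI-AdV-CRE-EGFP. Most of that sum was Ctsk (151 to 163, 532 to 581, 367 to 405 and 836 to 858 CPM in the same order) and Lyz2 (202 to 211, 227 to 243, 363 to 395 and 388 to 429 CPM). Ptprc, the pan-leukocyte marker, lay between 4 and 6.91 CPM in all 12 libraries and Dcstamp was at 0 in all. Other members were higher in OI-AdV-EGFP than in AdV-EGFP, such as Cd68 (36.1 to 38 against 17.2 to 18.8 CPM) and Fcgr3 (17.2 to 20.6 against 6.17 to 6.96 CPM). Cd14 (2.35 to 2.88 against 3.27 to 3.64 CPM) and Itgam (5.87 to 7.55 against 5.4 to 7.47 CPM) were not. Of the 9 epithelial markers the sum was at most 4.2 CPM without Cre and 8.03 to 10.7 CPM with it, mostly Krt18, while Epcam stayed at or below 0.217 CPM. The 10 endothelial markers summed to 6.98 to 11.3, 23.5 to 28.6, 20.4 to 24.1 and 35.7 to 39.6 CPM in the same order, most of it Kdr in the last 3 groups, while Pecam1 was at most 0.785 CPM. The 12 skeletal muscle markers summed to 94.5 to 99.8 and 134 to 146 CPM on day 0 and to 32.3 to 35.4 and 41.4 to 46.1 CPM on day 4, with Acta1 the main part of the day 0 sums. In bulk RNA, fewer cells of a type and less RNA per cell cannot be told apart, and the part of these markers in the results below was not tested.

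Plagl1 itself was higher with Cre on day 0 and about level with its control on day 4. It lies on chromosome 10 of GRCm39 from 12936248 to 13007438 on the plus strand. Its level was 386, 426 and 390.2 CPM in the AdV-EGFP libraries and 581, 593.5 and 591.5 CPM in those labelled AdV-CRE-EGFP. After induction it was 402, 393 and 379.5 CPM in OI-AdV-EGFP and 382, 404 and 368 CPM in those labelled OI-AdV-CRE-EGFP. Only on day 0 did the groups not overlap. The interaction was −0.58 (standard error 0.06, edgeR adjusted p = 6.2e-08), which is below the 2-fold threshold, from a log2 difference of 0.55 on day 0 and −0.03 on day 4. No lowering of Plagl1 RNA was thus seen in the libraries labelled with Cre on either day. The paper reported less PLAGL1 protein by Western blot in condylar cells given Cre, which RNA counts do not measure. Counts per gene cannot show the loss of single exons, so the groups are named below by their labels, and "with Cre" stands for the labels.

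The proximal promoters of 3 genes are shown as a description: the targeted gene Plagl1, and Mmp13 and Igfbp3, whose difference with Cre turned round with induction. No level or interaction given here rests on these sequences. They come from RefSeq (table build GRCm38.p6, 250 bases before to 50 after the start) and were placed in GRCm39 by exact match. Capitals mark matches, on either strand, to 4 motifs that do not overlap each other: GGGGCCCC, a core close to the published PLAG-type site; CACGTG, the E-box bound by MYC and by TFEB-type factors; TGANTCA, bound by the FOS and JUN proteins of AP-1; and ACANNNTGT, the spaced core of the glucocorticoid receptor site.
Plagl1, chr10:12966326-12966625, plus strand: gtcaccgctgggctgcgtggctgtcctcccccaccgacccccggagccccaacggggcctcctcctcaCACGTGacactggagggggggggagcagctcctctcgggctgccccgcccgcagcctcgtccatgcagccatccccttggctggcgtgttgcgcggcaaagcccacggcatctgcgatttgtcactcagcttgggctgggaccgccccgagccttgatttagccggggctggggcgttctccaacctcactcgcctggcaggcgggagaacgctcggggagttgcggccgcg
Mmp13, chr9:7272264-7272563, plus strand: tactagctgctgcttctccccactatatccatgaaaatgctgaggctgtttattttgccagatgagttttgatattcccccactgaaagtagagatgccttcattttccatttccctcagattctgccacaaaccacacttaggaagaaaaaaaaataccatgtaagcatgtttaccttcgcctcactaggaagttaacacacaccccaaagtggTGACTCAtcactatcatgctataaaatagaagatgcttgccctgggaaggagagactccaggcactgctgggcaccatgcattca
Igfbp3, chr11:7163874-7164173, minus strand: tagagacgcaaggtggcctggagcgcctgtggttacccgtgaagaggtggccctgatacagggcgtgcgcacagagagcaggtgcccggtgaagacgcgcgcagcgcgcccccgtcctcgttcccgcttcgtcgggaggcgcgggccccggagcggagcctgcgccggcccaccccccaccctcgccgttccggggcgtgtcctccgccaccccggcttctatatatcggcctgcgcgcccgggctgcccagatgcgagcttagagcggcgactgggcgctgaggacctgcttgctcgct

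The Plagl1 window held CACGTG at position −182 from the listed start, the Mmp13 window held TGACTCA at −35, and the Igfbp3 window held none of the 4. The windows of Igfbp5, Enpep, Col23a1 and Agt, which turned lower too, also held none. Among all 27025 genes with a promoter in the table, taking the first listed for each, 1.06% held GGGGCCCC, 7.24% CACGTG, 7.93% TGANTCA and 6.9% ACANNNTGT. Over the 10680 tested genes with a promoter in the table, the shares were 1.53%, 9.92%, 5.17% and 4.15%. Of the 37 genes with a promoter among those that turned lower, 1 held GGGGCCCC, 3 CACGTG, 2 TGANTCA and 2 ACANNNTGT (2.7%, 8.11%, 5.41% and 5.41%). Among 72 such genes that appeared lower, the counts were 2, 3, 7 and 8 (2.78%, 4.17%, 9.72% and 11.1%), and among 32 that appeared higher they were 0, 4, 6 and 2 (0%, 12.5%, 18.8% and 6.25%). A match in this window is a description of letters and says nothing of binding.

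Most called interactions were lower, and most of those genes were at their highest in induced control cells. At an adjusted p under 0.05 and at least 2-fold, 530 of 13670 genes were called (3.88%), 143 of them higher (1.05%) and 387 lower (2.83%). By adjusted p alone, 1467 genes were higher (10.7%) and 1648 lower (12.1%), around a median interaction of −0.0077 over all tested genes. When the test itself was set against 2-fold, 15 genes were called higher and 109 lower. The difference with Cre was called on day 0 for 432 genes (3.16%), 356 higher (2.6%) and 76 lower (0.556%), and on day 4 for 693 genes (5.07%), 336 higher (2.46%) and 357 lower (2.61%). By adjusted p alone, 29.3% of the tested genes differed with Cre on day 0 and 40.5% on day 4, and 22.8% had an interaction. Of the 387 genes called lower, 285 had their highest mean in OI-AdV-EGFP, which was the highest group for 32.3% of all tested genes. Among the 143 called higher, 74 were highest in AdV-EGFP, against 26.9% of all tested genes, and 54 in OI-AdV-CRE-EGFP, against 20.4%. These shares follow in part from the contrast itself. A lower interaction favours AdV-CRE-EGFP or OI-AdV-EGFP as the highest group, and a higher one favours AdV-EGFP or OI-AdV-CRE-EGFP.

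The called genes were sorted by how the difference with Cre stood on each day. A gene turned where the sign was opposite on the 2 days, with an adjusted p under 0.05 and a log2 difference of at least 0.5 on both. It appeared where the difference was called on day 4 and under 0.5 on day 0, and disappeared in the reverse case. A difference under 0.5 could still pass the adjusted p. By these rules 71 genes turned (0.519% of those tested), 12 of them higher (0.0878%) and 59 lower (0.432%). Another 142 appeared (1.04%), 47 higher (0.344%) and 95 lower (0.695%), and 79 disappeared (0.578%), 8 higher (0.0585%) and 71 lower (0.519%). A further 16 kept their sign and grew (0.117%), 11 higher (0.0805%) and 5 lower (0.0366%), and 36 kept it and shrank (0.263%), 1 higher (0.00732%) and 35 lower (0.256%). The remaining 186 lay between these limits (1.36%), 64 higher (0.468%) and 122 lower (0.892%). The call held when each of the 12 libraries was left out in turn for 11 of the 12 genes that turned higher and 59 of the 59 that turned lower. It held for 31 of 47 and 61 of 95 of those that appeared, and for 3 of 8 and 52 of 71 of those that disappeared.

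**Figure D1:**
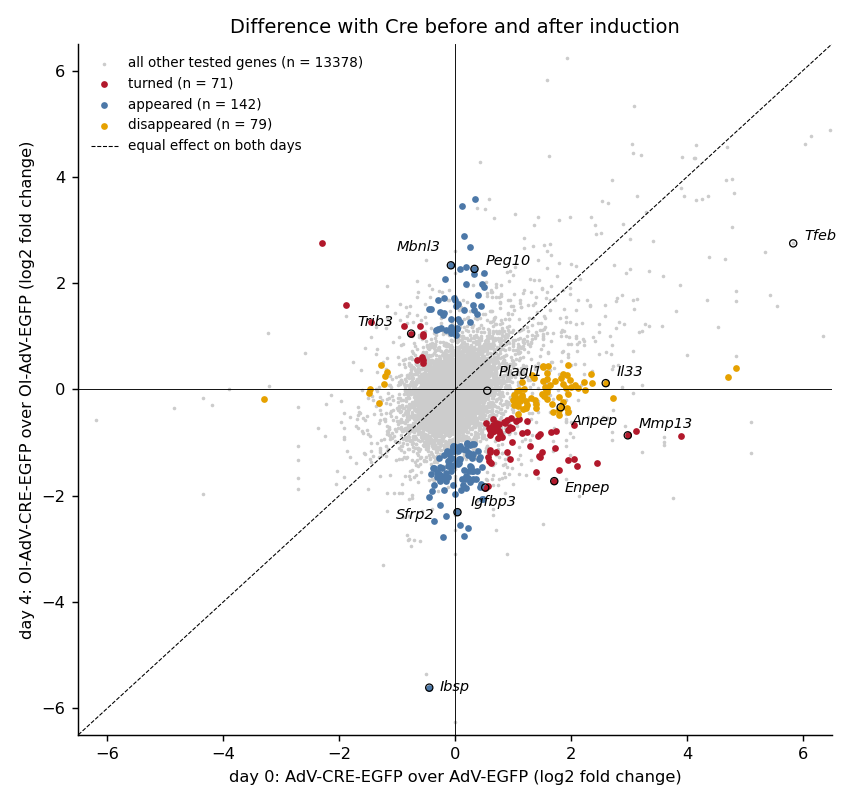
Log2 difference between libraries with and without Cre on day 0 (x axis) and on day 4 (y axis) for each tested gene, with the 71 genes that turned, the 142 that appeared and the 79 that disappeared in colour; 15 genes lie outside the axes. Most coloured points lie below the dashed line of equal difference, which is where the 387 genes called lower fall.

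Genes that turned lower were raised with Cre before induction and lowered with Cre after it. Over these 59 genes the median log2 difference was 0.938 on day 0 and −0.84 on day 4. Their median change with induction was 3.06 in the libraries without Cre and 0.866 in those with it, and 57 of the 59 were highest in OI-AdV-EGFP. The smaller change with Cre is what a lower interaction means. The class rule left only AdV-CRE-EGFP or OI-AdV-EGFP as the highest group. Mmp13, which encodes the collagenase of hypertrophic cartilage and of osteoblasts, had the largest interaction of those at 10 CPM or more. It measured 19.5, 19.4 and 12.5 CPM in AdV-EGFP, and 116, 165 and 123 CPM in AdV-CRE-EGFP. With induction it measured 413, 350.5 and 399.8 CPM in OI-AdV-EGFP, and 223, 207 and 208.5 CPM in OI-AdV-CRE-EGFP. The groups did not overlap on either day and their order was opposite. The log2 difference was 2.98 (standard error 0.12) on day 0 and −0.86 (standard error 0.09) on day 4, an interaction of −3.84 (standard error 0.16, edgeR adjusted p = 3e-15).

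Enpep and Agt, which both act in the making or trimming of angiotensin, were among the genes that turned lower. Enpep, the aminopeptidase that trims angiotensin II, had 1.94, 1.79 and 1.91 CPM in AdV-EGFP, 6.51, 5.6 and 6.36 in AdV-CRE-EGFP, 54.2, 52.8 and 48.5 in OI-AdV-EGFP, and 17, 14.5 and 15.4 in OI-AdV-CRE-EGFP. Its difference of 1.71 on day 0 became −1.73 on day 4 (interaction −3.44, standard error 0.17, edgeR adjusted p = 1.2e-13). For Agt, the precursor of angiotensin, the means were 0.699, 1.9, 18.6 and 7.86 CPM in the same order, with an interaction of −2.69. The secreted factor Ndnf had means of 12.5, 35.4, 135 and 59.6 CPM and an interaction of −2.68. Smoc1, a matrix protein that binds calcium, and Col23a1, a transmembrane collagen, had interactions of −3.27 and −2.96, from at most 5.27 CPM in any day 0 library. In each of these 5 genes the libraries with and without Cre did not overlap on either day. The class limits on both days favour such a separation, and its share over all tested genes is not given here.

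Of the 6 IGF-binding proteins tested, Igfbp3 and Igfbp5 turned lower, and Igf2, the growth factor, had no detected difference with Cre before induction and was lower with it after. Igfbp3 measured 33.1, 34.4 and 32 CPM in AdV-EGFP and 47.4, 46.7 and 48.5 CPM in AdV-CRE-EGFP. After induction it measured 237, 263 and 259.9 CPM without Cre and 68.8, 70.7 and 71.6 CPM with it. The difference went from 0.52 to −1.85, an interaction of −2.37 (standard error 0.07, edgeR adjusted p = 4.6e-17). Igfbp5 stood at 138 ± 6.17 CPM (SD, n = 3) in AdV-EGFP, 205 ± 2.86 in AdV-CRE-EGFP, 2097 ± 119.6 in OI-AdV-EGFP and 866 ± 58.2 in OI-AdV-CRE-EGFP, an interaction of −1.85 (standard error 0.07, edgeR adjusted p = 5.1e-16). Both genes were raised with induction in either arm, by less in the arm with Cre. Igf2 had 771, 725 and 734 CPM in AdV-EGFP, 767, 785 and 802 in AdV-CRE-EGFP, 1428, 1600 and 1567 in OI-AdV-EGFP, and 711, 774 and 713 in OI-AdV-CRE-EGFP. On day 0 its groups overlapped (log2 difference 0.08, edgeR adjusted p = 0.18), and on day 4 they did not (−1.06). The interaction of Igf2 was −1.14 (standard error 0.06, edgeR adjusted p = 3.8e-13). Chrdl1, a BMP antagonist, appeared lower (−1.51, from means of 9.05, 8.27, 95.6 and 30.7 CPM). Gas6, a ligand of the TAM receptor kinases, was called at −1.41 and lay just outside the limits for turning and appearing, with 0.44 on day 0 and −0.97 on day 4. The other binding proteins differed: Igfbp4 had an interaction of −0.71 (edgeR adjusted p = 2.4e-08), Igfbp7 0.27 (0.001) and Igfbp2 0.56 (3.5e-06), and Igfbp6 did not pass (−0.25, 0.099). The list counts from here on are to be read against all tested genes, of which 1.05% were called higher and 2.83% lower, 10.7% were higher and 12.1% lower by adjusted p, and the median interaction was −0.0077. Of the 22 tested genes of the IGF axis list, which holds Chrdl1 and Gas6 because the study names them, 6 were called lower and none higher, and by adjusted p 11 were lower and 4 higher, with a median of −0.294.

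**Figure D2:**
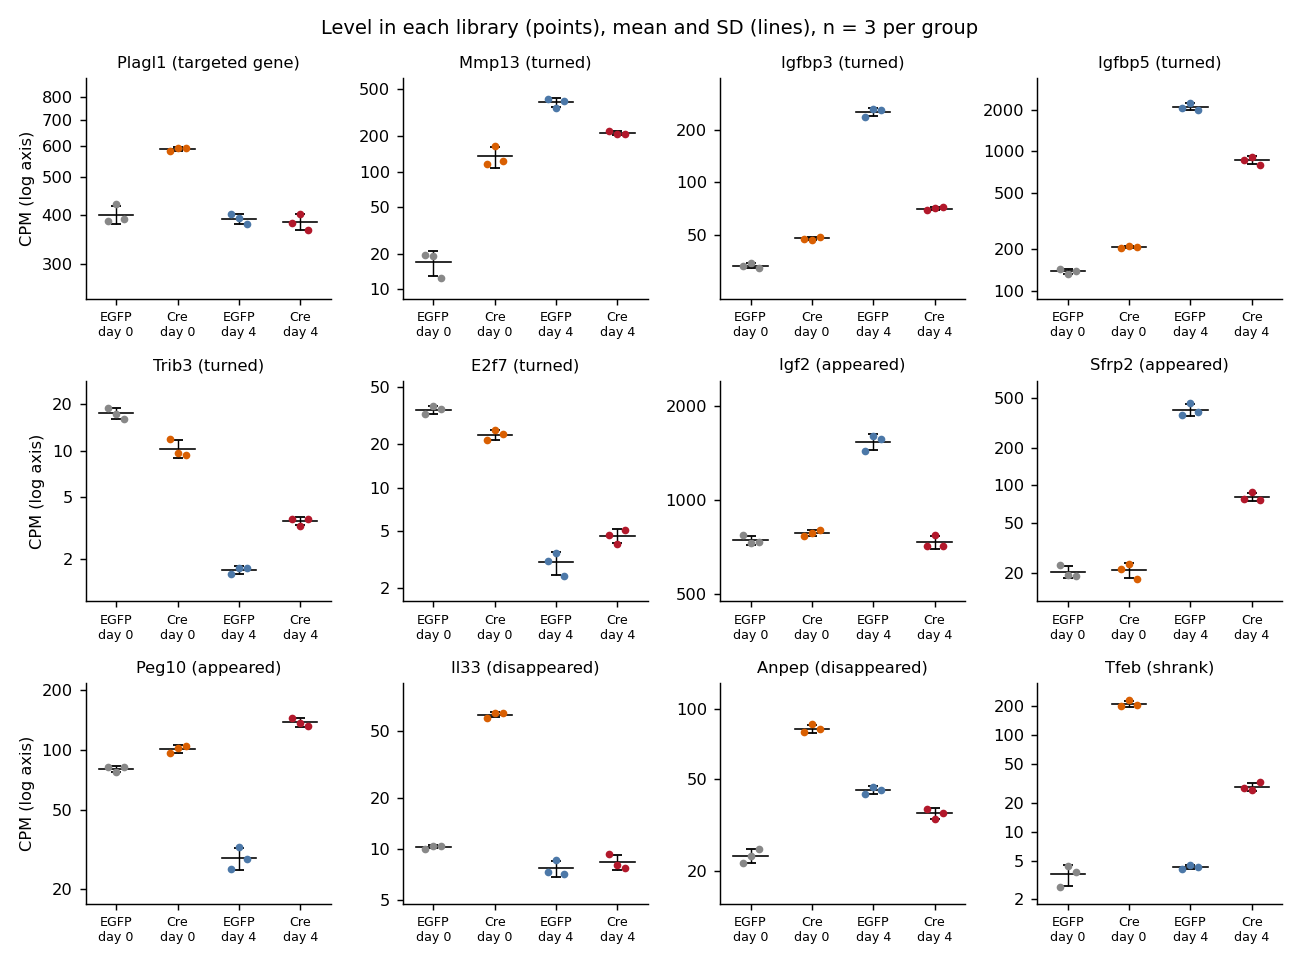
CPM on a log axis in each of the 12 libraries for 12 genes; points are libraries, horizontal lines group means and vertical bars 1 SD (n = 3 per group), and the class of each gene is in its title. Mmp13, Igfbp3 and Igfbp5 are higher with Cre on day 0 and lower with it on day 4, Trib3 and E2f7 the reverse, and Il33 stands at 60 to 63.8 CPM only in AdV-CRE-EGFP.

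Genes that turned higher were fewer and mostly fell with induction. Over the 12, the median change with induction was −2.98 without Cre and less steep with it, and 10 were highest in AdV-EGFP. The less steep fall is what a higher interaction means here, and the class rule left only AdV-EGFP or OI-AdV-CRE-EGFP as the highest group. Trib3, a pseudokinase induced by ATF4, measured 18.9, 17.4 and 16.2 CPM in AdV-EGFP, 11.9, 9.69 and 9.38 in AdV-CRE-EGFP, 1.59, 1.74 and 1.74 in OI-AdV-EGFP, and 3.62, 3.27 and 3.64 in OI-AdV-CRE-EGFP. Its interaction was 1.81 (standard error 0.22, edgeR adjusted p = 8.3e-07), with no overlap on either day. Il18rap, a subunit of the interleukin-18 receptor, had the same interaction (1.81) from means of 29.1, 19.1, 2.25 and 5.16 CPM. Ntn4, a basement membrane netrin, was the exception in level: it stood at 44.2, 28.1, 31.8 and 46.6 CPM and was highest in OI-AdV-CRE-EGFP (interaction 1.21, standard error 0.09, edgeR adjusted p = 1.9e-10). E2f7, a repressor of E2F targets, Erfe, the hormone erythroferrone, and Pcdhac2, a protocadherin, had interactions of 1.18, 1.58 and 1.11. On log2(FPKM + 1) these last 3 fell below 2-fold, at 0.86, 0.84 and 0.76.

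In the osteoblast list Ibsp, Alpl, Phex and Dmp1 appeared lower, on low and uneven levels, while other members moved the other way. Spp1, osteopontin, had an interaction of 0.62 (edgeR adjusted p = 3.8e-08), Enpp1, which makes pyrophosphate, 0.88 and Tnfrsf11b, osteoprotegerin, 0.88. Phospho1, a phosphatase of matrix vesicles, was higher with Cre on both days (1.54 and 1.38) and its interaction did not pass. Ibsp, bone sialoprotein, stood at 52.2, 33.8 and 0.432 CPM in AdV-EGFP, and at 29.8, 32.4 and 0.578 CPM in AdV-CRE-EGFP. After induction it stood at 285, 82.2 and 293 CPM in OI-AdV-EGFP, and at 4.29, 3.52 and 5.67 CPM in OI-AdV-CRE-EGFP. Replicate 3 of both day 0 groups thus lay far below the other day 0 libraries, and the day 4 groups did not overlap. The interaction was −5.17 (standard error 1.03, edgeR adjusted p = 0.0006). Without both of those libraries, a setting chosen after the values were seen, it was −5.12 (edgeR adjusted p = 1.5e-06), and in limma on log2(FPKM + 0.1) it was −5.17 with an adjusted p of 0.12. Alpl, alkaline phosphatase, measured 3.81, 2.17 and 0.865 CPM, then 2.56, 2.9 and 0.642 with Cre on day 0, and after induction 11.1, 11 and 14.7 without and 2.29, 2.22 and 2.5 with Cre. Its interaction was −2.23 (standard error 0.50, edgeR adjusted p = 0.0017; in limma on log2(FPKM + 0.1), adjusted p = 0.065).

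Phex and Dmp1 were also lower with Cre after induction. Phex, an endopeptidase of osteoblasts and osteocytes, had 7.05, 5.87 and 9.79 CPM in OI-AdV-EGFP and 1.09, 1.29 and 0.954 CPM in OI-AdV-CRE-EGFP, against 2.47 to 3.6 CPM over the 6 day 0 libraries (interaction −2.91, standard error 0.33, edgeR adjusted p = 2.8e-07). Dmp1, a matrix phosphoprotein, ranged from 2.15 to 11.3 CPM in OI-AdV-EGFP and stood at 0.847 ± 0.261 CPM (SD, n = 3) in OI-AdV-CRE-EGFP, with 3.66 to 5.3 CPM on day 0 (interaction −2.58, standard error 0.58, edgeR adjusted p = 0.0017). On log2(FPKM + 1), Dmp1 had −0.96 with a limma adjusted p of 0.091. Its value rests in part on OI-AdV-EGFP replicate 3, without which it was −1.66 (edgeR adjusted p = 0.0029). Among the transcription factors, Runx2 had −0.59 (edgeR adjusted p = 8.8e-06), under 2-fold, from means of 45.4, 49.1, 41.3 and 29.8 CPM. Sp7 had −0.99 with a standard error of 0.52 (edgeR adjusted p = 0.18), which does not show that its difference was the same on both days. Without AdV-CRE-EGFP replicate 3 it was −1.37 (edgeR adjusted p = 0.037), and without AdV-CRE-EGFP replicate 1 it was −0.52 (edgeR adjusted p = 0.57). Col1a1, the main collagen chain of bone, had 0.30 (edgeR adjusted p = 0.0017) from means of 5921, 5029, 5731 and 6007 CPM. Over the 23 tested genes of the osteoblast list, 7 were called lower and none higher, and by adjusted p 9 were lower and 6 higher. The list median was 0.0213, and it was −0.106 on log2(FPKM + 1).

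Several small proteoglycans and the Wnt-binding protein Sfrp2 also appeared or turned lower. Ogn, osteoglycin, stood at 183 ± 10.4, 226 ± 7.88, 1516 ± 81.0 and 523 ± 20.9 CPM (SD, n = 3), with the day 0 groups first and the group without Cre first on each day (interaction −1.84, standard error 0.06, edgeR adjusted p = 4.2e-16). Lum and Dcn, which bind and space collagen fibrils, turned (−1.73 and −1.66), and Aspn appeared (−1.35). Of 28 tested collagens and small proteoglycans, 7 were called lower and 1 higher, and by adjusted p 13 were lower and 5 higher (median −0.197). Bgn and Prelp, small proteoglycans too, were among the higher ones (0.16 and 0.20). Sfrp2, a secreted Wnt-binding protein, had 23.2, 19.2 and 19.1 CPM in AdV-EGFP, 21.7, 23.7 and 17.9 in AdV-CRE-EGFP, 366, 452 and 384 in OI-AdV-EGFP, and 77.9, 87.9 and 76.5 in OI-AdV-CRE-EGFP. On day 0 its groups overlapped, and its interaction was −2.35 (standard error 0.13, edgeR adjusted p = 1.8e-12). Sfrp1 and the Wnt agonist Rspo2 were called at −1.34 and −1.25 and lay between the class limits, whereas the antagonist Dkk2 was higher (0.36, edgeR adjusted p = 0.0036). In the Wnt list 4 of 21 were called lower and none higher, and by adjusted p 6 were lower and 2 higher (median −0.647). Tendon and fibrous layer genes had 3 of 22 called lower, among them Eln, elastin (−1.60), Postn (−1.23) and Tnmd (−1.25), and by adjusted p 11 lower and 3 higher (median −0.502). Of the 16 tested chondrocyte genes, 2 were called lower, Col9a3 (−2.13, at most 1.64 CPM) and Prg4, lubricin (−1.27, means 5.02, 6.83, 141 and 79.3 CPM), and by adjusted p 6 were lower and none higher (median −0.632).

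Some complement genes and most class I antigen presentation genes had a lower interaction. Serping1, the C1 inhibitor, measured 9.75, 8.3 and 8.83 CPM in AdV-EGFP, 16.9, 13.1 and 15.3 in AdV-CRE-EGFP, 421.5, 421 and 404 in OI-AdV-EGFP, and 270.5, 259 and 268 in OI-AdV-CRE-EGFP. It turned, with 0.76 on day 0 and −0.64 on day 4 (interaction −1.40, standard error 0.10, edgeR adjusted p = 1.5e-10). C1s1, the C1s protease, turned (−1.88), and C1ra, the C1r protease, appeared (−1.44). Of 20 tested complement genes 6 were called lower and none higher, and by adjusted p 7 were lower and 1 higher (median −0.356). B2m, the light chain of class I, had means of 424, 456, 1745 and 899.6 CPM (interaction −1.06, standard error 0.06, edgeR adjusted p = 6.4e-13). Among 13 class I genes 4 were called lower and none higher, and by adjusted p 8 were lower and none higher (median −0.655), although reads of the near-identical H2-Q genes may be split between them. The difference with Cre by adjusted p was lower on day 0 for 4 of the 13, against 13.5% of all tested genes, and on day 4 for 13 of 13, against 20.6%. Interferon response genes differed: 21 of 38 were lower with Cre on day 0 and 32 on day 4, and by adjusted p only 3 had a lower and 1 a higher interaction (median −0.11).

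Genes that appeared higher were mostly at their highest in OI-AdV-CRE-EGFP, 28 of 47, against 20.4% of all tested genes. The class rule itself places this group above OI-AdV-EGFP. Mbnl3, an RNA-binding protein of the muscleblind family, measured 10.7, 15.8 and 11 CPM in AdV-EGFP, 12.7, 12.1 and 10.7 in AdV-CRE-EGFP, 10.1, 9.3 and 9.19 in OI-AdV-EGFP, and 45.2, 48.5 and 50.5 in OI-AdV-CRE-EGFP. Only the last group stood apart (interaction 2.41, standard error 0.16, edgeR adjusted p = 4.5e-11). Slc6a15, a neutral amino acid transporter, had the same shape, with 4.73 to 9.25 CPM in the other 9 libraries and 23.2 to 27.1 CPM in OI-AdV-CRE-EGFP (2.11, standard error 0.18, edgeR adjusted p = 3.4e-09). Cd36, a receptor for fatty acid uptake, had 9.88 to 18.8 CPM elsewhere and 51.4 to 55.1 CPM there (1.70, standard error 0.14, edgeR adjusted p = 1.8e-09). On day 0 Cd36 was already higher with Cre, by a log2 of 0.494 (edgeR adjusted p = 0.00078), just under the class limit. Peg10, an imprinted gene of retroelement origin, followed another course. It fell with induction without Cre and not with it, from 82.4, 77.2 and 81.6 to 25.1, 32.4 and 28.1 CPM in the EGFP groups, and from 96.4, 103 and 105 to 144, 137 and 131 CPM in the Cre groups (interaction 1.93, standard error 0.09, edgeR adjusted p = 3.9e-14). Sema7a, a membrane-anchored semaphorin, had means of 49.7, 37.4, 2.98 and 8.51 CPM (1.92). It was lower with Cre on day 0 (−0.41, edgeR adjusted p = 0.00026) and higher with it on day 4 (1.51). Gm49450, a predicted gene, was called at 1.97, but its 3 libraries in OI-AdV-EGFP ranged from 1.39 to 13.1 CPM. Leaving out OI-AdV-EGFP replicate 1 raised it to 2.98, and DESeq2 did not call Gm49450 (adjusted p = 0.19).

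Genes that disappeared lower were raised with Cre on day 0 and differed by a log2 of less than 0.5 on day 4. By adjusted p, 4 of the 71 were still higher with Cre on day 4 and 11 were lower. Of the 71, 34 were highest in AdV-CRE-EGFP, which was the highest group for 20.5% of all tested genes, and 25 in OI-AdV-EGFP. The class rule places AdV-CRE-EGFP above AdV-EGFP in each of these genes, so the share over all tested genes is no like comparison. Il33, an alarmin cytokine, measured 60, 63.8 and 63.6 CPM in AdV-CRE-EGFP and 7.12 to 10.5 CPM in the other 9 libraries (interaction −2.48, standard error 0.14, edgeR adjusted p = 1.1e-12). Nptx1, neuronal pentraxin, had the same pattern, with 16.2 to 20.4 CPM in AdV-CRE-EGFP and 0.94 to 3.83 elsewhere (−2.24). So had Gsta4 and Gsta1, glutathione transferases whose near-identical relatives make single genes uncertain: Gsta4 stood at 135.5 to 153 CPM in AdV-CRE-EGFP and at 37.5 to 54 elsewhere (−1.56). Anpep, aminopeptidase N, had 21.7, 23.1 and 24.9 CPM, then 79.2, 85.8 and 81.7 with Cre on day 0, and after induction 43, 46.3 and 44.9 without and 37.1, 33.4 and 35.7 with Cre (−2.16, standard error 0.09, edgeR adjusted p = 4.3e-15).

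In Zim1 and Ppfibp2 the induced controls stood at the level of the Cre libraries. Zim1, an imprinted zinc finger gene, had 14.6 to 16 CPM in AdV-EGFP and 45 to 59.9 CPM in all 9 others (interaction −1.88, standard error 0.09, edgeR adjusted p = 9.1e-14). Ppfibp2, a liprin, had 2.35 to 3.55 CPM in AdV-EGFP and 17.9 to 23.8 elsewhere (−2.88, standard error 0.16, edgeR adjusted p = 1.8e-12). Pgm5, an adhesion-associated protein, and Aldh1a7, an aldehyde dehydrogenase with near-identical relatives, rose steeply with induction in either arm, Pgm5 to means of 124 and 95.3 CPM and Aldh1a7 to 165 and 118 CPM, and had −2.17 and −2.27. Their day 0 means were low, 1.53 and 5.28 CPM for Pgm5 and 1.035 and 3.585 CPM for Aldh1a7. On day 4 both were lower with Cre, under the class limit (Pgm5 −0.38, edgeR adjusted p = 1.4e-05, and Aldh1a7 −0.48, edgeR adjusted p = 1.1e-07). Their sign was thus opposite to that on day 0. The reverse class held only 8 genes. Its members at 10 CPM or more were the chemokines Cxcl14, with means of 20.4, 8.7, 6.25 and 6.68 CPM (1.32, standard error 0.17, edgeR adjusted p = 1.9e-06), and Ppbp, with 13, 5.77, 1.18 and 1.48 CPM (1.49, standard error 0.34, edgeR adjusted p = 0.0019).

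Genes whose difference kept its sign and shrank were led in level by Tfeb, a transcription factor of lysosome genes. Tfeb measured 2.71, 4.47 and 3.83 CPM in AdV-EGFP and 199, 226 and 204 CPM in AdV-CRE-EGFP. On day 4 it measured 4.11, 4.53 and 4.35 CPM without Cre and 28.4, 26.6 and 32.3 CPM with it. It was raised with Cre on both days, by a log2 difference of 5.83 and then 2.75 (interaction −3.08, standard error 0.19, edgeR adjusted p = 5.3e-12). Atp6v0d2, a subunit of the proton pump of lysosomes and osteoclasts, shrank likewise, with means of 2.96, 26.8, 6.52 and 13.7 CPM (−2.10). Of the 33 tested genes of the lysosome list, 2 were called lower and none higher, by adjusted p 13 were lower and 1 higher, and the median was −0.203. By adjusted p, 22 of the 33 were higher with Cre on day 0 (15.8% of all tested genes) and 17 on day 4 (19.8%). The chemokine Ccl8 also shrank (−3.18, means 0.084, 2.63, 1.78 and 5.67 CPM). Ptgds, which makes prostaglandin D, was at 0 in all 3 AdV-EGFP libraries and at 0.45 to 0.791 CPM in AdV-CRE-EGFP, so its fitted interaction of −5.35 depends on the prior count and is no measure of size.

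Most cell cycle genes had a higher interaction, of small size. Of 38 tested, 31 had a higher interaction by adjusted p and none a lower one, with a median of 0.498, although only Rrm2 passed 2-fold. On day 0, 34 of the 38 were lower with Cre by adjusted p and none higher (median −0.443), against 13.5% lower and 15.8% higher over all tested genes. On day 4 none was lower and 11 were higher (median 0.032), against 20.6% and 19.8%; the same shares apply to the day 0 and day 4 counts of the lists that follow. Rrm2, a subunit of ribonucleotide reductase, had 197, 197 and 189 CPM in AdV-EGFP, 162, 169 and 163 in AdV-CRE-EGFP, 155, 153.5 and 149.8 in OI-AdV-EGFP, and 354, 340.1 and 326 in OI-AdV-CRE-EGFP (interaction 1.39, standard error 0.06, edgeR adjusted p = 3.9e-15). The list fell with induction in the libraries without Cre by a median log2 of 2.54.

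Most targets of ATF4 and genes of amino acid supply were higher too. By adjusted p, 17 of 24 were higher and 1 lower (median 0.508), and Trib3 and Chac1, which degrades glutathione, were called; Chac1 fell to 0.88 without OI-AdV-EGFP replicate 3, below the threshold. On day 0, 14 of the 24 were lower with Cre and 3 higher, and on day 4, 1 was lower and 15 higher. Cholesterol and fatty acid synthesis genes had 17 of 29 higher and 1 lower by adjusted p, with none called (median 0.266). Their difference with Cre was higher for 6 and lower for 4 on day 0, and higher for 20 and lower for none on day 4. Immediate early genes had 11 of 25 higher and 1 lower (median 0.279), with Atf3 (1.17), Ccn2 (1.17) and Fos (1.08) called. Nuclear genes of oxidative phosphorylation had 7 of 37 higher and 3 lower and none called (median 0.0572), although 20 were higher with Cre on day 0 and 28 on day 4.

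**Figure D3:**
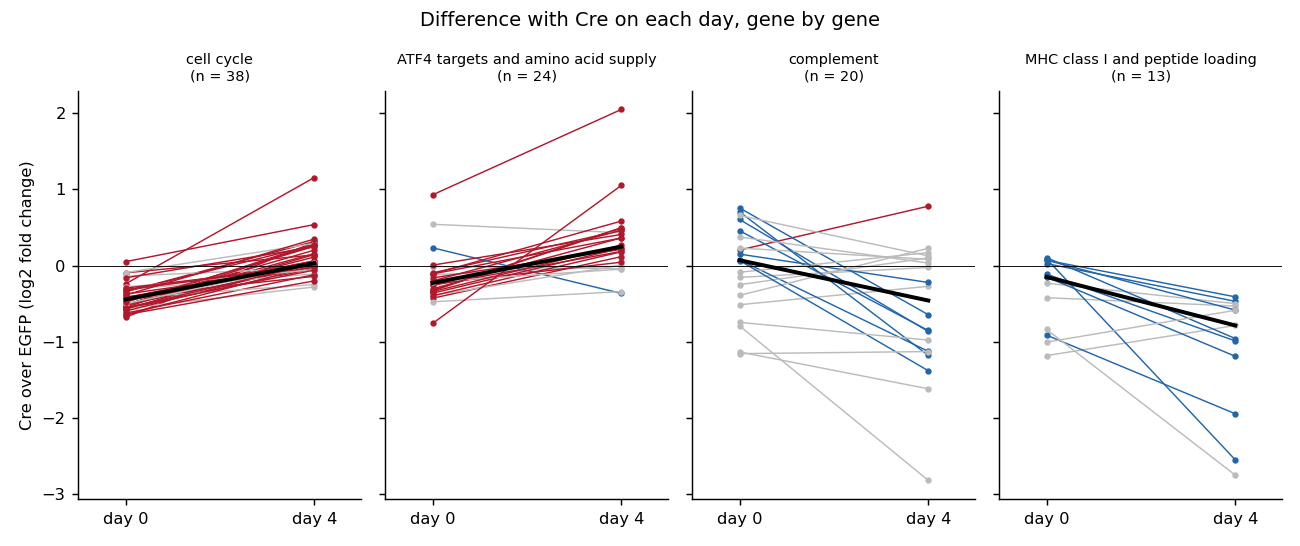
Log2 difference between libraries with and without Cre on each day for the tested members of 4 lists; each thin line is a gene, red where its interaction was higher and blue where it was lower at an adjusted p under 0.05, grey otherwise, and the thick line is the list median. Cell cycle medians go from −0.443 to 0.032 and class I medians from −0.149 to −0.785.

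Imprinted genes did not share 1 direction. Of 25 tested, 6 were called lower and 1, Peg10, higher, and by adjusted p 11 were lower and 3 higher (median −0.379). The 6 fell into different classes: Igf2 and Dlk1, an inhibitor of adipocyte differentiation, appeared, Zim1 disappeared and Dcn turned. Dlk1 stood at 34.2 ± 1.91, 42.6 ± 2.04, 112 ± 15.6 and 35.0 ± 7.92 CPM (SD, n = 3) in the order of the groups above.

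The remaining lists are given by their counts at an adjusted p under 0.05. Chemokines, cytokines and prostaglandin enzymes had 9 of 28 higher and 8 lower (2 and 6 called, median −0.0804). Genes of NRF2 and glutathione had 4 of 25 higher and 12 lower, with 5 called lower (median −0.111), and glycolysis and hypoxia-inducible genes had 3 of 29 higher and 12 lower, with 2 called lower (median −0.196). TGF-beta and BMP genes had 4 of 27 higher and 8 lower, with 1 and 2 called, Tgfb2 (−1.09) among the lower ones (median −0.106). For p53 targets the counts were 8 of 24 higher and 7 lower, with Gdf15 (−1.55) and Sesn1 (−1.33) called (median 0.0116). Glucocorticoid response genes, which dexamethasone acts on, had 4 of 22 higher and 3 lower, with Angptl4 called higher (1.09) and 1 called lower (median −0.0572); in limma on log2(FPKM + 1) 3 were higher and 8 lower (median −0.169). Adipocyte genes had 3 of 12 in each direction and Cd36 called (median 0.208). Smooth muscle genes had 7 of 18 higher and 2 lower, with 1 called lower (median 0.128), keratins and cornified envelope genes had 2 of 11 lower, with Krt19 (−1.34) called (median −0.612), and clustered histone genes had 2 of 24 higher and 1 lower, with the low-level H2ac8 (3.49) and H3c2 (1.97) called (median 0.433), and 7 higher in limma on log2(FPKM + 1).

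**Figure D4:**
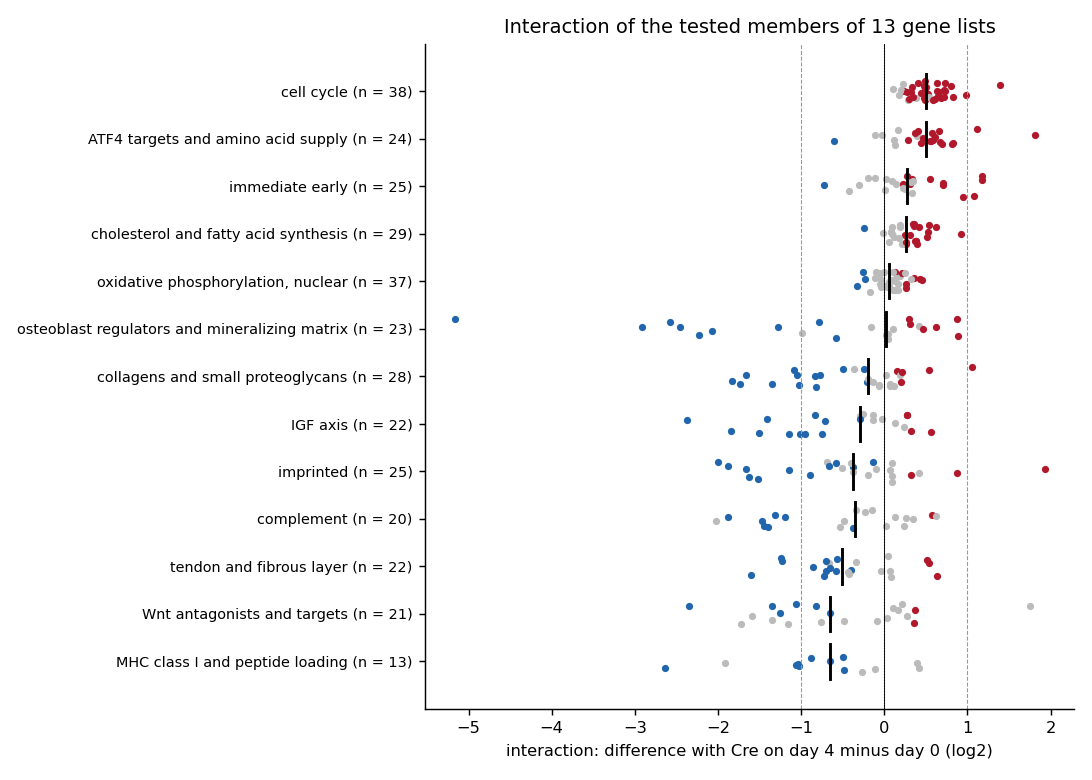
Log2 interaction of each tested member of 13 lists (points; red higher and blue lower at an adjusted p under 0.05, grey otherwise), with list medians as black bars, 2-fold as dashed lines and the median of all tested genes, −0.0077, dotted. Cell cycle members lie to the right of 0 with a median of 0.498, and the class I list lies mostly to its left with a median of −0.655.

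Reference genes passed the adjusted p as well. Gapdh had 0.28 (edgeR adjusted p = 4.3e-05), Hprt 0.47 (2.4e-06) and Actb 0.17 (0.0067), all below 2-fold.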

How the data were processed

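RNA was sequenced from 12 libraries, 3 in each of 4 groups, and each column of the deposited table was matched to a group through the sample titles in the labels. The authors prepared the libraries with a NEBNext Ultra II kit, trimmed reads with Cutadapt, aligned them with HISAT2 to GRCm39 and counted them with HTSeq, as their methods and processing notes state. For every gene the deposited table lists an estimated count in each library, left unscaled by the authors. In each library 1646 to 1844 genes carry a fractional value, a form that HTSeq does not normally write, and how these arose is unknown. It also holds FPKM values, which the authors scaled by transcript length and mapped fragments. Annotation release and strand setting were not given in the sources used here, so overlapping, antisense and near-identical genes are uncertain.

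Estimated counts were rounded and fitted in edgeR 4.0.16 (R 4.3.3) by the quasi-likelihood test on 4 group means, after TMM scaling and filterByExpr, which kept 13670 of 22063 genes. The common biological coefficient of variation was 0.0472. P-values were adjusted by Benjamini-Hochberg over all tested genes, and an interaction of 1 or more on the log2 scale, in either direction, was called where the adjusted p was under 0.05. Standard errors are the absolute log2 value over the square root of F. Totals were alike between libraries (15316989 to 18052040), so depth limits mainly the genes at a few CPM. Within groups, library pairs differed by a chi-square per gene of 2.16 to 5.07, more than counting noise alone would give. Each library was counted once, although this does not show that the libraries are independent cultures. On simulated counts for 14016 genes, 20 of 50 genes with a true interaction of 1 were called, 44 of 50 at 1.5, 50 of 50 at 2, and 2 of 13816 unchanged genes. The simulation gave every gene the common coefficient of variation and placed changes only in genes above a minimum mean count. Its rates therefore do not carry over to genes with a wider spread or a level of a few CPM.

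The genes named are Plagl1 and the genes the study names for these cells. To these were added up to 6 genes per direction of the classes turned, appeared and disappeared, by size of interaction, with a mean of at least 10 CPM in the highest group and a call that held without any 1 of the 12 libraries. The rule then took up to 4 called members of each of 26 pathway lists, and Actb, Gapdh and Hprt. Some named genes are not reported here. The class limits, the lists and the rule were chosen with earlier results of these data known. Lists are described by counts and medians, with those of all tested genes given once for reference, and had no test of their own. Alternatives were DESeq2 1.42.0, other scalings, filters and class limits, a replicate term, limma 3.58.1 on log2(FPKM + 1) and log2(FPKM + 0.1) for genes with an FPKM of at least 1 in 3 libraries, a test against 2-fold (glmTreat), and leaving out each library. Promoter sequences of 29 of 36 genes searched came from RefSeq and were placed in GRCm39 within 20000 bases of the GENCODE gene.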

Additional observations from a re-analysis of the deposited data

Results flagged for a closer look

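Each gene here had a difference with Cre that differed between day 0 and day 4 by the test of that difference (edgeR, adjusted p under 0.05, at least 2-fold), and the value given is its log2 interaction. With groups of 3 libraries, no test for 1 library far from its group was run, although each library was left out in turn.

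Of the genes that turned, Il18rap had 1.81, Trib3 1.81, Erfe 1.58, Ntn4 1.21, E2f7 1.18, Pcdhac2 1.11 and the low-level histone gene H2ac8 3.49. On the lower side, Mmp13 had −3.84, Enpep −3.44, Smoc1 −3.27, Col23a1 −2.96, Gstt1, a glutathione transferase, −2.71, Agt −2.69, Ndnf −2.68, Igfbp3 −2.37, C1s1 −1.88, Igfbp5 −1.85, Lum −1.73, Dcn −1.66, Eln −1.60 and Serping1 −1.40.

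Of those that appeared, Mbnl3 had 2.41, Slc6a15 2.11, Gm49450 1.97, H3c2 1.97, Peg10 1.93, Sema7a 1.92, Cd36 1.70 and Rrm2 1.39. The lower ones were Ibsp at −5.17, Phex at −2.91, H2-Q7 at −2.63, Dmp1 at −2.58, Negr1, a neuronal adhesion protein, at −2.52, Sfrp2 at −2.35, Megf6 at −2.27, Alpl at −2.23, Dlk1 at −2, Ogn at −1.84, Chrdl1 at −1.51, C1ra at −1.44, Aspn at −1.35, Sesn1 at −1.33, Tnmd at −1.25 and Igf2 at −1.14.

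Of those that disappeared, Ppbp had 1.49 and Cxcl14 1.32, and on the lower side Ppfibp2 had −2.88, Il33 −2.48, Aldh1a7 −2.27, Gsta1 −2.25, Nptx1 −2.24, Pgm5 −2.17, Anpep −2.16, Zim1 −1.88, Gsta4 −1.56, Gdf15 −1.55 and Krt19 −1.34. Among genes that kept their sign, Atf3 had 1.17, Angptl4 1.09, Ptgds −5.35, Ccl8 −3.18, Tfeb −3.08 and Atp6v0d2 −2.10. Between the class limits lay Ccn2 at 1.17, Fos at 1.08, Col9a3 at −2.13, Aldh3a1 at −1.78, Gas6 at −1.41, Egln3 at −1.35, Sfrp1 at −1.34, Prg4 at −1.27, Rspo2 at −1.25, Postn at −1.23, Tgfb2 at −1.09 and B2m at −1.06.

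A further 12 called genes lost the call when 1 library was left out. Bglap had −2.46, and −2.10 without AdV-EGFP replicate 2 and −2.12 without AdV-CRE-EGFP replicate 2. Bglap2, of the same list and better expressed, turned lower (−2.08, standard error 0.30, edgeR adjusted p = 1.5e-05). Nkd2 had −1.06, and −0.978 without AdV-EGFP replicate 1 and −0.998 without AdV-CRE-EGFP replicate 1. Ccl11 had −2.62, and −2.11 without AdV-CRE-EGFP replicate 2. Chac1 had 1.12, and 0.882 without OI-AdV-EGFP replicate 3. Mylk had −1.10, and −0.976 without AdV-EGFP replicate 3. Psmb9 had −1.95, and −1.58, −1.83 and −1.19 without AdV-EGFP replicate 1, AdV-EGFP replicate 2 and AdV-CRE-EGFP replicate 3. Gdf10 had −1.05, and −0.926, −0.948, −0.999 and −0.946 without AdV-EGFP replicate 2, AdV-CRE-EGFP replicate 1, OI-AdV-EGFP replicate 2 and OI-AdV-CRE-EGFP replicate 2. H2-K1 had −1.04, and −0.997, −0.959, −0.981 and −0.965 without AdV-EGFP replicate 1, AdV-CRE-EGFP replicate 1, OI-AdV-EGFP replicate 2 and OI-AdV-CRE-EGFP replicate 1. H2-Q4 had −1.03, and −0.969, −0.873, −0.919 and −0.995 without AdV-EGFP replicate 3, AdV-CRE-EGFP replicate 1, OI-AdV-EGFP replicate 2 and OI-AdV-CRE-EGFP replicate 3. Car9 had −2.22, and −1.82, −1.94, −1.94 and −1.92 without AdV-CRE-EGFP replicate 2, OI-AdV-EGFP replicate 1, OI-AdV-CRE-EGFP replicate 2 and OI-AdV-CRE-EGFP replicate 3. Zbtb16 had −1.71, and −1.70, −1.69 and −1.67 without each AdV-EGFP library in turn and −1.54 and −1.53 without AdV-CRE-EGFP replicates 2 and 3. Oas3 had −1.41, and −1.20, −1.29, −1.44, −1.13, −1.22 and −1.32 without AdV-EGFP replicate 1, AdV-EGFP replicate 3, AdV-CRE-EGFP replicate 1, AdV-CRE-EGFP replicate 2, OI-AdV-EGFP replicate 1 and OI-AdV-CRE-EGFP replicate 1.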

How the results depend on the processing

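The median interaction over all genes stayed between −0.012 and 0.022 under every setting run, and lower calls were 67.5% to 87.9% of the 2-fold calls (73% in the report). No named gene changed sign under any of them. Without a filter, 19 genes turned higher, and DESeq2 left 5 that disappeared higher. A filter of 10 CPM kept 9827 genes and gave 64 interactions called higher and 195 lower, of which 7 and 38 turned, 20 and 55 appeared, and 2 and 33 disappeared, with 139 and 26 differences with Cre on day 0 and 119 and 138 on day 4 (higher and lower). On log2(FPKM + 1), 54 and 194 were called, 2 and 23 turned, 22 appeared higher, 3 and 18 disappeared, and 116 and 8 differed on day 0 and 111 and 130 on day 4. On log2(FPKM + 0.1), 4 and 40 disappeared, and 224 and 40 differed on day 0 and 199 and 237 on day 4. Adding a pseudocount shrinks differences between low values by construction. The test against 2-fold called 15 and 109, with 4 turning higher, 10 and 24 appearing, and 0 and 24 disappearing. By adjusted p alone 1467 and 1648 were called. With an absent difference defined by an adjusted p of 0.05 or more, 14 disappeared higher, and with one under 0.25, 28 and 56 appeared and 4 and 44 disappeared. For the other counts that moved, the cause was not tested.

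Leaving out 1 library at a time gave 119 to 156 interactions called higher and 349 to 383 lower. The genes that disappeared higher ranged from 3 to 10, with 3 without OI-AdV-EGFP replicate 3 and 5 without any of the OI-AdV-CRE-EGFP libraries in turn. Without replicate 3 of both day 0 groups, chosen after the data were seen, 488 genes were called, 418 of them among the 530, and Zbtb16, Psmb9, Oas3 and Mylk were not. DESeq2 called 497 genes, 485 of them among the 530, and of the named genes did not call Gm49450 and Zbtb16.

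Over all tested genes, deviations from the group means did not follow the replicate numbers. In single genes they could: replicate 3 was the lowest library in both day 0 groups for Ibsp, Alpl and Sp7. Whether libraries of the same number share a culture was not tested. Over 18 pairs with the same number, the correlation of deviations from the group means was −0.0515 to 0.0371, and 2 of 12 libraries correlated best with their own number. With the replicate number as a block (the replicate block), 132 genes were called higher and 382 lower, 507 of them among the 530, and every named gene kept its side of the threshold.

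Standard errors were wide for low and uneven osteoblast genes, at 1.03 for Ibsp, 0.73 for Bglap and 0.58 for Dmp1, against a median of 0.124 over all tested genes.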
